A study of Homo sapiens with 27 samples.

Results

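The KANK genes encode a family of scaffold proteins at the rim of integrin adhesions. The family was taken by name: rows of the count table with the symbol KANK1, KANK2, KANK3 or KANK4, with rows sharing a symbol summed. All 4 genes were present with 1 row each, 4 of 40487 rows and 4 of the 36536 genes left after summing. The family was chosen by the value of 1 member: KANK4 was among the genes furthest below additivity when epidermal growth factor (EGF) and oncostatin M (OSM) were given together, so its values in the libraries with PBS, EGF, OSM and EGF+OSM are described here without a test. KANK1, KANK2 and KANK3 entered as the rest of the family.

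The cells were MCF10A, a line of human breast epithelial origin that does not form tumours, and the measurement was RNA-seq of polyadenylated RNA. All groups were grown with 20 ng/ml EGF and then kept for 18 h without growth factors on collagen-coated plates. The T0 group was collected at 0 h with no treatment, and the PBS group received phosphate-buffered saline for 24 h. The other 7 groups received EGF, OSM (a cytokine related to interleukin 6) or transforming growth factor beta (TGFB) at 10 ng/ml each for 24 h, singly, in each pair, or all together (EGF+OSM+TGFB). There were 27 libraries, 3 for each of the 9 groups. The labels do not say whether the 3 libraries of a group came from separate cultures, so p-values measure the spread between these libraries, which may be technical.

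KANK proteins share a short N-terminal KN motif, which binds talin at the rim of focal adhesions, a coiled coil that binds the liprin PPFIBP1, and C-terminal ankyrin repeats that bind the kinesin KIF21A. Through these contacts they tie integrin adhesions to a cortical complex of ELKS, LL5 and CLASP proteins that captures microtubule ends. KANK1 is also known to restrain RhoA signalling and actin stress fibres, KANK2 is a component of the belt around adhesions in many cells, KANK3 is known from endothelial cells, and KANK4 is known from kidney podocytes.

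In the GENCODE 44 annotation of GRCh38, KANK1 (ENSG00000107104) lay at chr9:470291-746105 on the plus strand, with a canonical transcript of 12 exons and 5070 bases. KANK2 (ENSG00000197256) lay at chr19:11164270-11197791 on the minus strand, with 13 exons and 5183 bases. KANK3 (ENSG00000186994) lay at chr19:8322584-8343262 on the minus strand, with 11 exons and 2787 bases. KANK4 (ENSG00000132854) lay at chr1:62236165-62319434 on the minus strand, with 10 exons and 5499 bases. An exon of KANK3 overlapped the ribosomal protein gene RPS28 on the opposite strand, and an exon of KANK1 overlapped the antisense long noncoding RNA DOCK8-AS2. The library kit was stranded, but whether counting used strand is not stated, so KANK1 and KANK3 counts are uncertain to that extent. No exon of KANK2 or KANK4 overlapped another annotated gene.

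The windows of 250 bases before RefSeq start sites (GRCh38.p14) are shown for KANK4 and KANK2, whose levels varied most. A window is also shown for the KANK1 start at position 707053, where a searched motif was found. The outermost KANK1 start, at position 470295, had none of the searched motifs and is not shown. The KANK2 window lies almost wholly inside the GENCODE span of its gene, and this KANK1 window wholly so. All windows are written 5′ to 3′ on the gene's strand, and capitals mark a match to the TEAD motif GGAATG.
KANK4, chr1:62319435-62319684, minus strand: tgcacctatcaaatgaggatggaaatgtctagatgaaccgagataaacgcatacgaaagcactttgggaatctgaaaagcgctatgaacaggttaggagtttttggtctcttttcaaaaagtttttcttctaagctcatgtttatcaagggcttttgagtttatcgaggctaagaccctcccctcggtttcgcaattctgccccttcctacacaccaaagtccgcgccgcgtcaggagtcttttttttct
KANK2, chr19:11197546-11197795, minus strand: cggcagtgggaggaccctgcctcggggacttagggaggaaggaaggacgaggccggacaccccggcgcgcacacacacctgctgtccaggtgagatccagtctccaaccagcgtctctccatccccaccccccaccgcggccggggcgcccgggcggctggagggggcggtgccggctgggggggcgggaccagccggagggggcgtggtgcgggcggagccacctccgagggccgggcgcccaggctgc
KANK1, chr9:706803-707052, plus strand: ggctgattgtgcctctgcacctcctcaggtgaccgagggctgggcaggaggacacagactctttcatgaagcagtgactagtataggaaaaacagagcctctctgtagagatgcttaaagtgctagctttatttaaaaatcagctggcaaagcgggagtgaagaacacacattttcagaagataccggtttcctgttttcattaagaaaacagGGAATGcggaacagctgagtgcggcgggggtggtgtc
The KANK4 window had 43.6% G and C and 11 CpG dinucleotides, and the KANK2 window had 76.4% G and C and 24 CpG. The median over the 34943 RefSeq windows of that length was 58.0% G and C with 11 CpG. Both strands were searched for AP-1 (TGANTCA), STAT (TTCNNNGAA), SMAD (GTCTAGAC) and TEAD (GGAATG) letters, in the 1 window each of KANK2, KANK3 and KANK4 and in 4 of KANK1. None of these windows held the AP-1, STAT or SMAD letters, which occurred in 6.59%, 6.56% and 0.183% of all windows. TEAD letters, present in 11.9% of all windows, occurred 37 to 32 bases before this KANK1 start and 135 to 130 bases before the KANK3 start. These matches describe letters only.

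Library totals were 30.1 to 52.9 M estimated counts (M, mega), with a median of 39.5 M. All 8 epithelial markers were detected in every library, given here as CPM (counts relative to library size, scaled by TMM, the trimmed mean of M-values). KRT5 ran from 3310 to 9190 CPM, KRT14 from 561 to 2960, TP63 from 84.3 to 199 and CDH1 from 143 to 676, while EPCAM was low, from 2.72 to 18.6 CPM, with its lowest mean of 3.27 CPM in OSM+TGFB. The 7 markers of blood and endothelial cells summed to 0.3761 to 4.692 CPM, and CD3E, CDH5, LYZ and HBB had a median of 0. The 5 mesenchymal markers summed to 522.2 to 576.2 CPM in PBS, 965.3 to 1081 in TGFB, 1074 to 1261 in EGF+OSM, 1730 to 1918 in OSM+TGFB and 1920 to 2073 in EGF+OSM+TGFB. VIM carried most of that sum (394 to 2020 CPM over all libraries), COL1A1 ran from 3.82 to 118 CPM and DCN from 7.42 to 103 CPM. COL1A2 and PDGFRB stayed at or under 0.453 and 1.04 CPM, and COL1A2 was at 0 in 1 library. COL1A1 means were 4.84 CPM in EGF+OSM, 38.7 in PBS, 110.8 in TGFB and 90.1 in OSM+TGFB. They were 21.2 CPM in EGF, 25.9 in OSM and 40.7 in EGF+OSM+TGFB. COL1A1 was thus lowest in EGF+OSM, as KANK4 was, but unlike KANK4 it was below PBS in EGF and in OSM. VIM means were 418 CPM in PBS and 1127 in EGF+OSM. DCN means were 91.6 CPM in PBS, 8.61 in EGF+OSM and 96.2 in TGFB. They were 11.27 CPM in EGF, 11.01 in EGF+TGFB and 12.09 in EGF+OSM+TGFB, against 72.69 in OSM and 94.45 in OSM+TGFB. DCN was thus low in each group treated with EGF, with or without OSM, unlike KANK4. The part of these markers in the KANK values below was not tested, and in bulk RNA a smaller share of cells expressing a gene cannot be told apart from less RNA per cell.

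KANK1 and KANK2 together made up most of the family in PBS, and the ligands changed the make-up of the family. Shares are of the summed level of the 4 genes, each as CPM per kb of its canonical transcript, so that genes of different length can be compared. In PBS, KANK1 made up 47.9% ± 0.617, KANK2 48.8% ± 0.462 and KANK4 3.27% ± 0.506 (SD, n = 3). In EGF+OSM the share of KANK1 was 79.9% ± 1.37, that of KANK2 18.5% ± 0.936 and that of KANK4 1.55% ± 0.538 (SD, n = 3). In OSM+TGFB, KANK4 held the largest share, 46.6% ± 0.923, ahead of KANK1 at 35.8% ± 1.57 and KANK2 at 17.7% ± 0.645 (SD, n = 3). KANK3 did not exceed a mean of 0.118% in any group. The shares depend on the length used. With the union of all annotated exons in place of the canonical transcript, an alternative added after seeing the data, PBS had 21.3% KANK1, 72.9% KANK2 and 5.79% KANK4, EGF+OSM had 53.8%, 41.8% and 4.13%, and OSM+TGFB had 12.7%, 21.1% and 66.1%. With either length KANK1 held the largest share in EGF+OSM and KANK4 in OSM+TGFB.

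**Figure D1:**
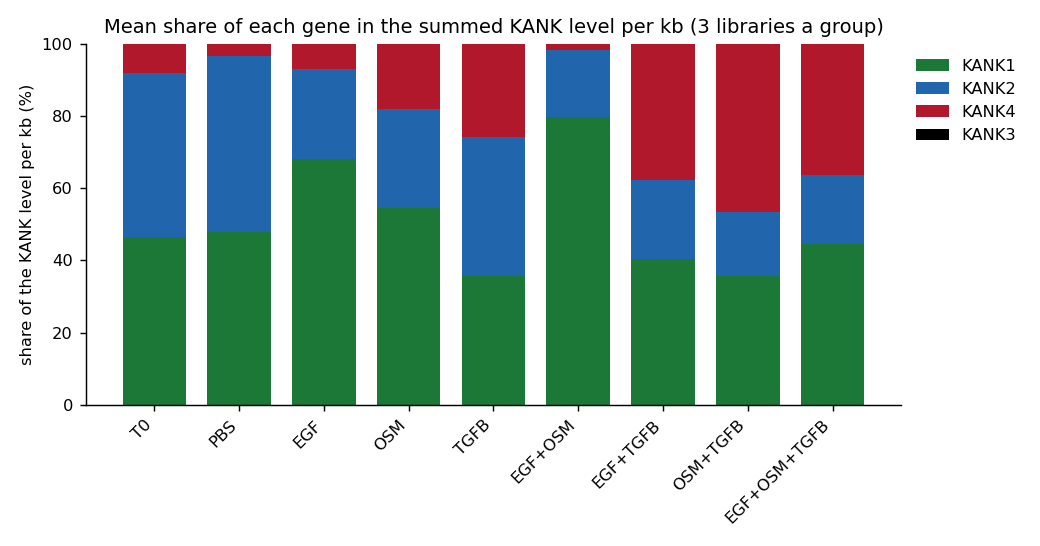
Stacked bars give the mean share (%) of each KANK gene in the summed level of the family per kb of canonical transcript, for the 9 groups of 3 libraries on the x axis. KANK4, in red, is thinnest in EGF+OSM (1.55%) and widest in OSM+TGFB (46.6%), and KANK3 is too low to be seen.

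KANK4 had the widest range in the family, with a mean of 1.93 CPM in EGF+OSM and 209 CPM in OSM+TGFB. In the 3 PBS libraries KANK4 stood at 7.13, 6.39 and 8.603 CPM, in T0 at 20.9, 13.8 and 18.7 CPM, and in EGF at 10.99, 10.7 and 9.90 CPM. OSM libraries held 39.5, 35.5 and 26.1 CPM of KANK4, whereas EGF+OSM libraries held 2.46, 2.21 and 1.11 CPM, from 91, 95 and 44 counts. Every EGF+OSM library was thus below every PBS library, although each single ligand gave values above those of PBS. The mean was 10.5 ± 0.565 CPM with EGF, 33.7 ± 6.86 with OSM, 7.37 ± 1.13 with PBS and 1.93 ± 0.719 with both ligands (SD, n = 3). On the log2 scale KANK4 differed from PBS by 0.52 ± 0.185 in EGF, 2.20 ± 0.175 in OSM and -1.93 ± 0.241 in EGF+OSM (SE). If the log2 effects of EGF and OSM on KANK4 had added, EGF+OSM would have stood at 48.2 CPM, and the measured level was 0.0401 of that. That departure of -4.65 ± 0.287 (SE, log2) is the value by which KANK4 was chosen, in a contrast where 38.7% of all genes departed.

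TGFB libraries formed a second and higher set of KANK4 levels. With TGFB alone KANK4 stood at 90.8, 89.2 and 97.9 CPM, with EGF+TGFB at 99.9, 104 and 88.4 CPM, and with EGF+OSM+TGFB at 111, 108 and 89.4 CPM. OSM+TGFB libraries were highest, at 222, 208 and 196 CPM. The ordered means ran from OSM+TGFB through EGF+OSM+TGFB, EGF+TGFB, TGFB, OSM, T0, EGF and PBS to EGF+OSM. Only EGF+OSM+TGFB with EGF+TGFB, and EGF+TGFB with TGFB, were neighbours in that order whose libraries overlapped. Against PBS, KANK4 differed by 3.65 ± 0.175 in TGFB, 3.73 ± 0.176 in EGF+TGFB, 4.83 ± 0.18 in OSM+TGFB and 3.81 ± 0.176 in EGF+OSM+TGFB (SE, log2). KANK4 in PBS differed from T0 by -1.27 ± 0.178 (SE, log2). TGFB added to EGF+OSM gave the widest gap for KANK4, 5.74 ± 0.211 (SE, log2), against 3.21 ± 0.168 when added to EGF and 2.63 ± 0.156 when added to OSM.

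**Figure D2:**
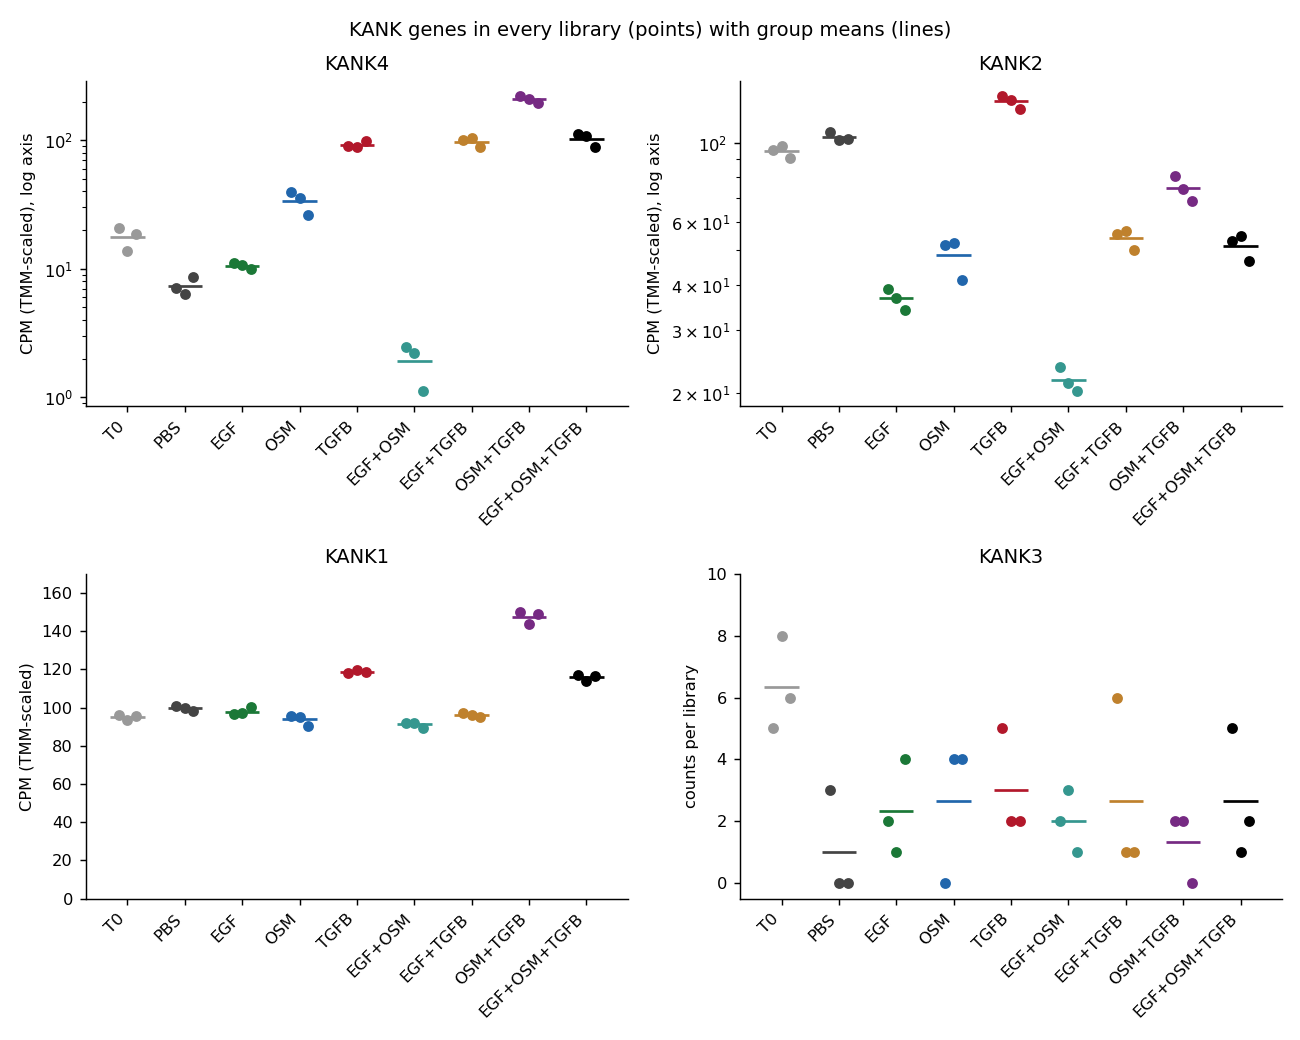
Each panel shows 1 KANK gene: points are libraries and lines are group means for the 9 groups on the x axis. KANK4 and KANK2 are in TMM-scaled CPM on log axes, KANK1 is in CPM on a linear axis, and KANK3 is in counts per library. KANK4 is lowest in EGF+OSM (1.11 to 2.46 CPM) and highest in OSM+TGFB (196 to 222 CPM).

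Within the 4 groups that received TGFB, which the choice of KANK4 did not use, OSM raised KANK4, and EGF on top of OSM lowered it again. OSM added to TGFB raised KANK4 by 1.17 ± 0.147 on the log2 scale (SE; 95% CI 0.87 to 1.48; edgeR adjusted p = 6.48e-07), from 92.6 ± 4.61 to 209 ± 13.2 CPM (SD, n = 3), and the libraries did not overlap. EGF added to OSM+TGFB lowered KANK4 by a log2 change of -1.02 ± 0.147 (SE; 95% CI -1.32 to -0.71; edgeR adjusted p = 6.22e-06), to 103 ± 11.9 CPM (SD, n = 3). Without OSM, EGF made no detectable difference to KANK4 in TGFB-treated cells: the change was 0.07 ± 0.147 (SE; 95% CI -0.23 to 0.38; edgeR adjusted p = 0.67). Likewise OSM added to EGF+TGFB gave a KANK4 change of 0.08 ± 0.147 (SE; 95% CI -0.23 to 0.39; edgeR adjusted p = 0.748), and both ligands added to TGFB gave 0.15 ± 0.147 (SE; 95% CI -0.15 to 0.46; edgeR adjusted p = 0.359). The signs of these 3 KANK4 values that missed the threshold turned negative on library totals, and that for OSM added to EGF+TGFB also without EGF+TGFB replicate 3 (-0.01).

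The departure of EGF and OSM from additivity in the presence of TGFB was negative for KANK4, -1.09 ± 0.207 (SE, log2; 95% CI -1.52 to -0.66; edgeR adjusted p = 0.000281). Additive log2 effects on TGFB would have given 219 CPM of KANK4 in EGF+OSM+TGFB, and the measured mean of 103 CPM was 0.469 of that. Across the alternative settings tried, the value ranged from -1.18 to -0.95, with adjusted p from 6.63e-06 to 0.00118. The comparable value without TGFB was -4.65, and the difference between them, 3.56 ± 0.359 (SE, log2), shares the libraries that chose KANK4 and is given without a test (3.9% of all genes passed for that difference). In both settings the pair of ligands gave less KANK4 than the single effects would add up to, but without TGFB the level fell under that of PBS, while with TGFB it was near that of TGFB alone.

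**Figure D3:**
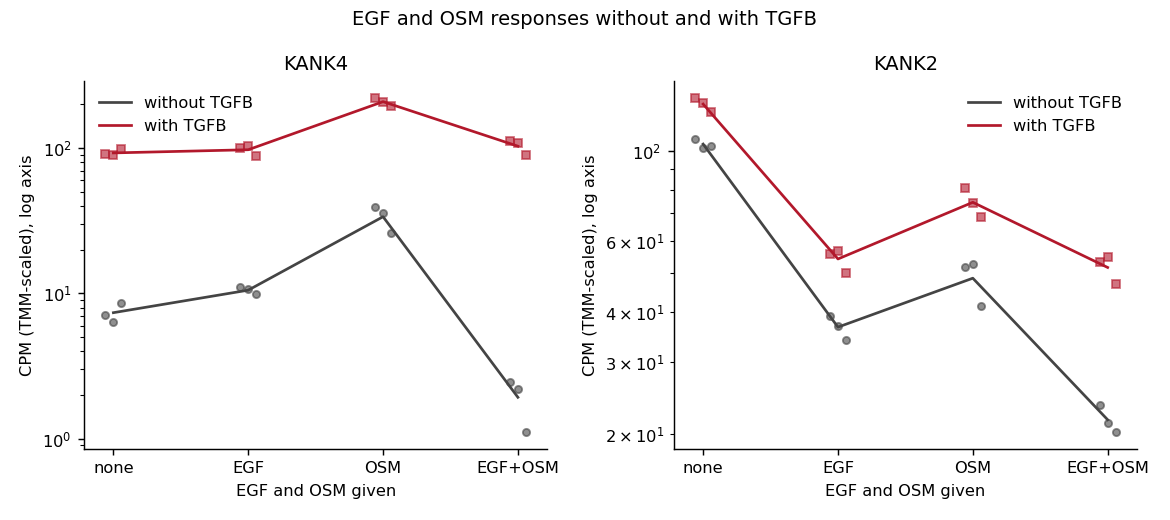
KANK4 (left) and KANK2 (right) are shown in TMM-scaled CPM on log axes against the EGF and OSM given, without TGFB in grey and with TGFB in red; points are libraries and lines join group means. The grey KANK4 line ends at 1.93 CPM with EGF+OSM while the red one ends at 103 CPM.

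KANK2 fell with EGF and with OSM, and fell furthest with both. PBS libraries held 107, 102 and 103 CPM of KANK2, EGF libraries 39.1, 36.8 and 34.1, OSM libraries 51.6, 52.4 and 41.3, and EGF+OSM libraries 23.5, 21.2 and 20.2 CPM. None of these 4 groups overlapped another. KANK2 changed by -1.50 ± 0.0807 with EGF (edgeR adjusted p = 1.64e-14), -1.10 ± 0.0798 with OSM (edgeR adjusted p = 6.81e-12) and -2.26 ± 0.0843 with EGF+OSM (edgeR adjusted p = 8.16e-18), all log2 with SE. TGFB alone moved KANK2 the other way, to 135, 132 and 125 CPM, a rise of 0.33 ± 0.0775 (SE, log2; edgeR adjusted p = 0.00147). T0 libraries, at 95.5, 97.8 and 90.5 CPM, were all below the PBS libraries, but the KANK2 change of 0.14 ± 0.0776 from T0 to PBS missed the threshold (SE, log2; 95% CI -0.02 to 0.29; edgeR adjusted p = 0.186).

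TGFB raised KANK2 on every background of the other ligands. It added 0.56 ± 0.0809 to EGF (edgeR adjusted p = 2.01e-06), 0.62 ± 0.08 to OSM (edgeR adjusted p = 4.01e-07) and 1.25 ± 0.0844 to EGF+OSM (edgeR adjusted p = 3.05e-12), in log2 with SE. The KANK2 libraries stood at 55.6, 56.4 and 50.0 CPM in EGF+TGFB, 80.7, 74.4 and 68.6 in OSM+TGFB, and 53.02, 54.7 and 46.7 in EGF+OSM+TGFB. All 3 of these groups lay under the PBS libraries, and EGF+TGFB and EGF+OSM+TGFB overlapped each other. Relative to PBS, KANK2 changed by -0.94 ± 0.0794 in EGF+TGFB (edgeR adjusted p = 6.34e-11), -0.48 ± 0.0785 in OSM+TGFB (edgeR adjusted p = 7.49e-06) and -1.01 ± 0.0799 in EGF+OSM+TGFB (edgeR adjusted p = 1.55e-11). On library totals the KANK2 change was -0.80 in OSM+TGFB, against a median of all genes of -0.316, and 0.36 for TGFB added to EGF, against -0.212, with the same calls. Among TGFB-treated cells, KANK2 fell when EGF was added (-1.27 ± 0.0797, edgeR adjusted p = 3.94e-13) or OSM was added (-0.81 ± 0.0786, edgeR adjusted p = 2.44e-09), and OSM on top of EGF+TGFB gave -0.07 ± 0.0807 (95% CI -0.24 to 0.09; edgeR adjusted p = 0.576). So KANK2 and KANK4 responded in opposite directions to OSM on TGFB, KANK2 falling while KANK4 rose.

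KANK1 varied least of the 3 measurable genes, between group means of 91.2 and 147 CPM, and its highest level was in OSM+TGFB. Its libraries held 101, 99.7 and 98.4 CPM in PBS, 118, 120 and 119 in TGFB, and 150, 144 and 149 CPM in OSM+TGFB. These 3 groups did not overlap, and EGF+OSM+TGFB, at 117, 114 and 117 CPM, lay between PBS and TGFB. T0, EGF, OSM, EGF+OSM and EGF+TGFB all fell between 89.3 and 100.1 CPM, and neighbours in their order overlapped. TGFB raised KANK1 by 0.25 ± 0.0346 (edgeR adjusted p = 1.82e-06) and OSM+TGFB raised it by 0.57 ± 0.0346 (edgeR adjusted p = 1.37e-13), in log2 with SE. In EGF+OSM+TGFB the KANK1 change from PBS was 0.22 ± 0.0346 (SE, log2; edgeR adjusted p = 3.79e-06), but it was -0.10 (adjusted p = 0.0123) on library totals, where the median of all genes was itself -0.318. EGF gave -0.03 ± 0.0346 (95% CI -0.10 to 0.05; edgeR adjusted p = 0.513), and EGF+TGFB gave -0.05 ± 0.0347 (95% CI -0.13 to 0.02; edgeR adjusted p = 0.162). On library totals KANK1 was 0.25 in OSM+TGFB and -0.25 in OSM, each still past the threshold, against medians of all genes of -0.316 and -0.156.

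The estimated effect of OSM on KANK1 was negative without TGFB and positive with it. The departure of OSM and TGFB, 0.40 on the log2 scale (edgeR adjusted p = 2.38e-06), tests whether these effects differ, and not their signs. Without TGFB, KANK1 fell by 0.09 on the log2 scale with OSM (SE 0.0347; edgeR adjusted p = 0.029), a call that was lost without PBS replicate 1 (-0.08, adjusted p = 0.0853), PBS replicate 2 (-0.09, adjusted p = 0.058) or OSM replicate 3 (-0.06, adjusted p = 0.155), and with no filter on low counts (-0.11, adjusted p = 0.0875). With TGFB, OSM raised KANK1 by 0.31 ± 0.0345 (SE, log2; edgeR adjusted p = 2.04e-08), which on library totals was 0.06 (adjusted p = 0.17) against a median of all genes of -0.248. EGF lowered KANK1 in TGFB-treated cells by a log2 change of -0.31 ± 0.0347 (SE; edgeR adjusted p = 1.72e-08), and in OSM+TGFB by -0.35 ± 0.0346 (SE; edgeR adjusted p = 7.69e-09). Added to OSM, TGFB raised KANK1 by 0.65 ± 0.0347 (edgeR adjusted p = 1.24e-13), and added to EGF it gave -0.03 ± 0.0347 (95% CI -0.10 to 0.04; edgeR adjusted p = 0.516; 0.02 without EGF+TGFB replicate 3).

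KANK3 was barely detected. It had 0 to 8 counts per library, 72 counts in all, and was at 0 in 4 of the 27 libraries, with a highest value of 0.165 CPM. KANK3 did not pass the filter on low counts and was not tested. T0 held 19 of those counts over its 3 libraries (5 to 8 each), PBS held 3 (0 to 3 each), and the 7 ligand groups held 4 to 9. With the filter removed, PBS against T0 gave a KANK3 log2 change of -2.33 that missed the threshold (edgeR adjusted p = 0.131). At these counts no difference between the ligand groups was detectable.

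Calls in the family were read against those over all 15575 genes tested, since the ligands moved a large part of the transcriptome. KANK1 and KANK2 both passed for OSM (63.4% of all genes passed), TGFB (35.6%), EGF+OSM (77.2%), OSM+TGFB (66%) and EGF+OSM+TGFB (74.4%) against PBS. For EGF (73.5%) and EGF+TGFB (73.7%) against PBS, KANK2 passed and KANK1 did not. Upper-quartile scaling did call KANK1 for EGF (-0.09, edgeR adjusted p = 0.0183, median of all genes -0.137). Library totals called KANK1 for EGF+TGFB (-0.27, edgeR adjusted p = 3.98e-07, median -0.253). They also called it for TGFB added to EGF (-0.23, edgeR adjusted p = 7.91e-06, median -0.212) and EGF+OSM added to TGFB (-0.29, edgeR adjusted p = 8.05e-08, median -0.256). Neither KANK1 nor KANK2 passed for PBS against T0 (35.1%) in edgeR, at an adjusted or an unadjusted threshold of 0.05. Among the alternatives, DESeq2 called KANK1 (0.08, adjusted p = 0.0351) and edgeR with a replicate block called KANK2 (0.14, adjusted p = 0.026). TGFB added to OSM (51.6%) and to EGF+OSM (61.1%) changed both KANK1 and KANK2, and added to EGF (54.6%) it changed KANK2. Among TGFB-treated cells KANK1, KANK2 and KANK4 all passed for OSM added to TGFB (56.6%) and for EGF added to OSM+TGFB (52.2%). KANK1 and KANK2 passed for EGF added to TGFB (69.4%), KANK2 for EGF+OSM added to TGFB (70.3%), and KANK1 for OSM added to EGF+TGFB (26.4%). A pass was therefore common among genes, and the sizes and directions above carry the description.

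Departures from additivity separated the members. For EGF and OSM with TGFB, where 35.1% of all genes departed (14.9% upwards and 20.2% downwards), KANK4 departed downwards and KANK2 upwards. The KANK2 value was 0.73 ± 0.112 (SE, log2; 95% CI 0.50 to 0.97; edgeR adjusted p = 1.24e-05): 51.5 CPM were measured where additivity gave 30.9 CPM, so the falls with EGF and with OSM did not add up. KANK1 gave -0.04 ± 0.0489 (SE, log2; 95% CI -0.14 to 0.06; edgeR adjusted p = 0.548), with the sign changing under upper-quartile scaling (0.01) and on library totals (0.10). On library totals 66.6% of the genes called for this departure were upwards, against 42.3% with TMM scaling. Without TGFB, the KANK2 departure was 0.34 ± 0.115 and that of KANK1 -0.01 ± 0.049 (SE, log2), given as description since that contrast chose the family.

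For EGF with TGFB, 29.8% of all genes departed, and KANK1 did so by -0.28 ± 0.0489 (SE, log2; edgeR adjusted p = 0.00011), with 96.0 CPM measured against 117 CPM under additivity. For OSM with TGFB, 23.3% departed, and KANK1 did so by 0.40 ± 0.0489 (SE, log2; edgeR adjusted p = 2.38e-06), with 147 CPM measured against 112 CPM. Thus KANK1 was above additivity when TGFB met OSM and below it when TGFB met EGF. KANK2 gave 0.23 ± 0.112 for TGFB with EGF (edgeR adjusted p = 0.123) and 0.29 ± 0.111 for TGFB with OSM (edgeR adjusted p = 0.0579), neither past the threshold; the first passed without EGF+TGFB replicate 3 (0.34, adjusted p = 0.0225), and the second without OSM replicate 1 (0.34, adjusted p = 0.0397), OSM replicate 2 (0.36, adjusted p = 0.0281) or OSM+TGFB replicate 3 (0.35, adjusted p = 0.0293). The second also passed with size factors by relative log expression (0.31, adjusted p = 0.045) and in DESeq2 (0.31, adjusted p = 0.0346). With a replicate block both passed (0.23, adjusted p = 0.0108, and 0.30, adjusted p = 0.00187). KANK4 values, which use the PBS libraries, were -0.44 ± 0.236 for TGFB with EGF and -1.025 ± 0.227 for TGFB with OSM (SE, log2), with no test. On library totals 21.6% of the genes called for EGF with TGFB and 22.5% of those for OSM with TGFB were upwards, against 44.7% and 41.3% with TMM scaling.

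**Figure D4:**
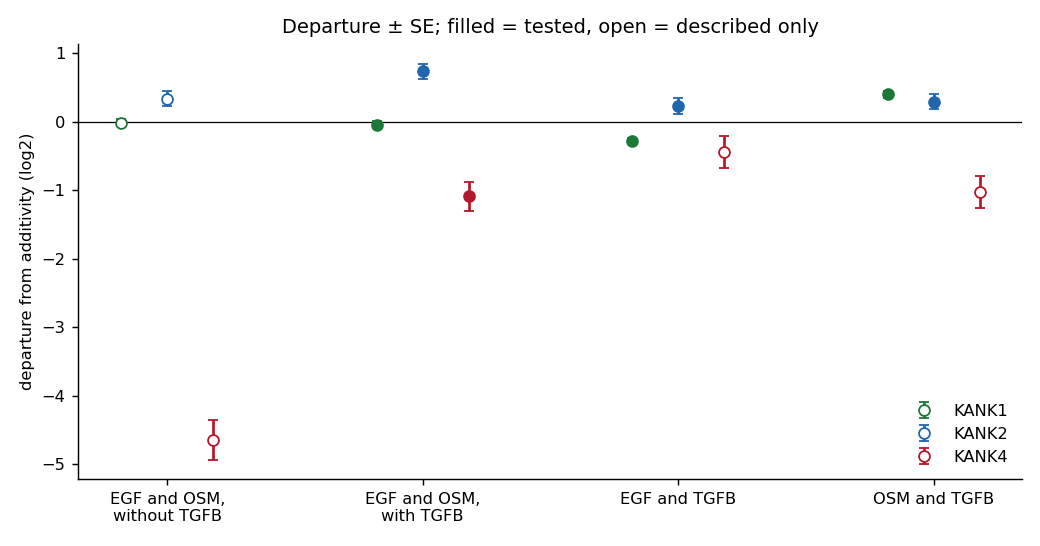
Departure from additivity on the log2 scale, with SE, for KANK1, KANK2 and KANK4 (colours) in the 4 ligand combinations on the x axis; filled points were tested and open ones are described only. KANK4 lies at -4.65 without TGFB and -1.09 with it, KANK2 lies above 0 in all 4, and KANK1 changes sign between EGF and OSM with TGFB.

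Over the 27 libraries, Pearson's r of log2 CPM was 0.714 between KANK1 and KANK4, 0.476 between KANK2 and KANK4 and 0.412 between KANK1 and KANK2, as a description in which libraries of a group share their treatment. By Spearman's rank correlation these were 0.638, 0.321 and 0.541, so the order of the last pairs depends on the measure. The 5 genes most like KANK4 by Pearson's r were GLIS3 (r = 0.967), BMP1 (0.958), ANXA8L1 (0.955), DIXDC1 (0.954) and FILIP1L (0.953). BMP1, a secreted metalloprotease that processes procollagen, had 55.1 CPM in EGF+OSM, 68.7 in PBS, 135 in TGFB and 213 in OSM+TGFB, and was the only one of the 5 also in the top 5 by Spearman's rank correlation. FILIP1L ran from 0.365 CPM in EGF+OSM to 13.5 in OSM+TGFB, and the zinc finger transcription factor gene GLIS3 stayed low, at 0.209 to 2.004 CPM. These genes had the order of KANK4 at its ends, which their choice by likeness favours, but with narrower ranges.

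KANK2 had closer matches: UBE2H (r = 0.988), SCARB2 (0.983), HS1BP3 (0.98), HHAT (0.979) and LRP1 (0.978), with UBE2H and SCARB2 also in the top 5 by Spearman's rank correlation. UBE2H, a ubiquitin-conjugating enzyme gene, had 384 CPM in PBS, 143 in EGF, 205 in OSM, 89.2 in EGF+OSM and 460 in TGFB. LRP1, an endocytic receptor gene, had 604 CPM in PBS, 76.9 in EGF and 38.1 in EGF+OSM. Both were low where KANK2 was low, which follows from how they were chosen, and LRP1 had the wider range. KANK1 had looser matches, ACVR1 (r = 0.871), PRRX2 (0.866), DERA (0.865), SEPTIN3 (0.857) and RTL8B (0.848), none of them in its top 5 by Spearman's rank correlation. ACVR1, a type I receptor of the BMP and activin family, had 29.6 CPM in PBS, 52.9 in TGFB and 57.6 in OSM+TGFB.

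The talin genes TLN1 and TLN2, whose products bind KANK proteins at adhesions, were listed together with genes of the cortical complex. The latter were the liprins PPFIA1 and PPFIBP1, KIF21A, ERC1, PHLDB1, PHLDB2, CLASP1 and CLASP2. All 10 are called cortical complex genes here for short. Among the 10, TGFB raised 7 and lowered 0, where 19.9% of all genes rose and 15.8% fell. The median log2 change of the 10 was 0.181, against -0.009 over all genes. EGF+OSM raised 4 and lowered 6 (37.6% and 39.6% of all genes), and EGF+OSM+TGFB raised 6 and lowered 2 (37.7% and 36.7%). On library totals the last count was 4 raised and 5 lowered, with a median of -0.071 against -0.318 over all genes. EGF+TGFB raised 8 and lowered 1 of the 10 (36.2% and 37.5% of all genes). OSM+TGFB raised 6 and lowered 2 (34.2% and 31.8%), EGF raised 5 and lowered 2 (34.9% and 38.6%), and OSM raised 4 and lowered 4 (33.5% and 29.8%). On library totals EGF+TGFB raised 6 and lowered 2, with a median of 0.153 against -0.253 over all genes. OSM+TGFB there raised 4 and lowered 6, with a median of -0.168 against -0.316. Under upper-quartile scaling OSM+TGFB raised 4 and lowered 4. TGFB added to EGF raised 8 and lowered 0, and added to OSM or to EGF+OSM it raised 8 and lowered 1, where 54.6%, 51.6% and 61.1% of all genes passed in either direction. From additivity of EGF and OSM with TGFB, 1 of the 10 departed upwards and 3 downwards, with a median of -0.15, where 14.9% and 20.2% of all genes did.

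PHLDB1, which encodes the LL5-alpha protein of that complex, shared the direction of KANK4 in OSM, TGFB and EGF+OSM against PBS. Those comparisons use libraries by which KANK4 was chosen. It stood at 65.3, 57.9 and 64.6 CPM in PBS, 231, 214 and 212 in TGFB, 44.9, 36.5 and 39.6 in EGF+OSM, and 126, 125 and 124 in EGF+OSM+TGFB. These 4 groups did not overlap, and EGF+OSM was again under PBS. PHLDB1 rose by 1.81 ± 0.0909 with TGFB (edgeR adjusted p = 9.63e-14) and by 0.45 with OSM (edgeR adjusted p = 0.000122), gave 0.13 with EGF (edgeR adjusted p = 0.195), and fell by 0.63 on the log2 scale with EGF+OSM (edgeR adjusted p = 9.84e-07). When OSM was added to TGFB, PHLDB1 gave -0.10 ± 0.0873 (SE, log2, edgeR adjusted p = 0.325), where KANK4 rose. EGF added to TGFB lowered PHLDB1 (-0.51, edgeR adjusted p = 1.5e-05), where KANK4 did not pass. EGF added to OSM+TGFB lowered both genes (PHLDB1 -0.70, edgeR adjusted p = 4.45e-07). The departure of EGF and OSM with TGFB was -0.19 for PHLDB1 (edgeR adjusted p = 0.244) and -1.09 for KANK4. The difference between the genes was not tested. PHLDB1 was picked out of the 10 after its values were seen. PHLDB2, for LL5-beta, rose in each of these ligand groups, by 0.65 with EGF, 0.96 with OSM, 0.81 with TGFB, 0.81 with EGF+OSM and 1.25 with EGF+OSM+TGFB.

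The talin gene TLN1 rose from 408 CPM in PBS to 1375 CPM in EGF+OSM+TGFB. The other talin gene, TLN2, fell by 0.98 on the log2 scale in the same comparison. TLN1 rose by 0.64 with EGF, 0.60 with OSM, 0.40 with TGFB and 0.86 with EGF+OSM. PPFIBP1, the liprin that binds the KANK coiled coil, rose by 0.65 ± 0.0534 with all ligands (SE, log2; edgeR adjusted p = 3.2e-11). KIF21A, the kinesin bound by the ankyrin repeats, gave 0.08 ± 0.0493 (SE, log2, edgeR adjusted p = 0.15) there. On library totals it gave -0.24 (edgeR adjusted p = 0.000151), where the median of all genes was itself -0.318.

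**Figure D5:**
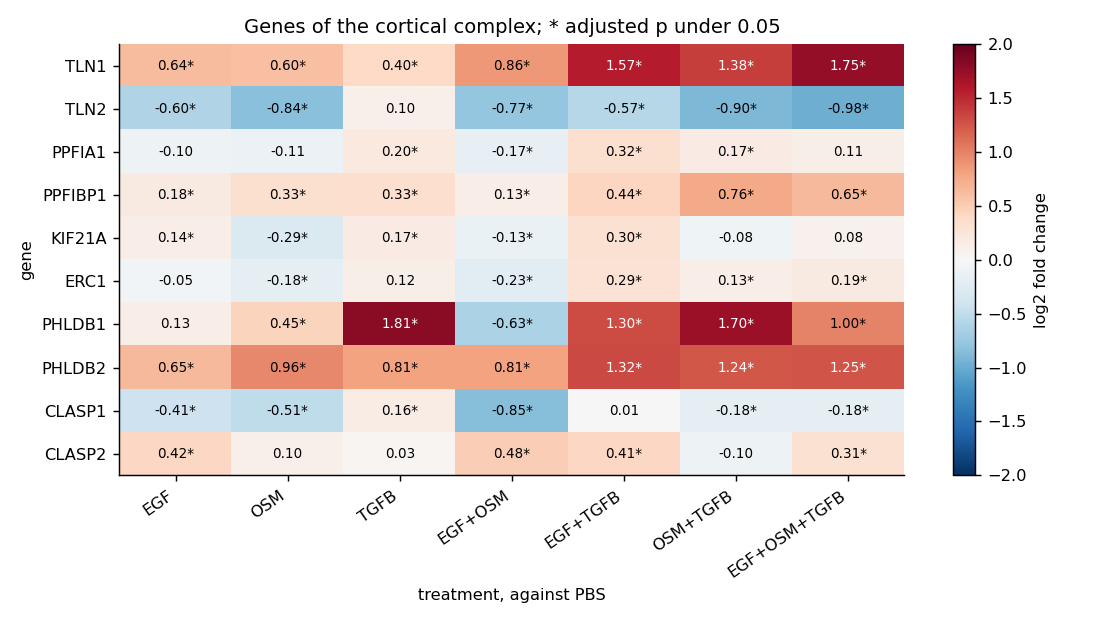
Each cell gives the log2 fold change against PBS of 1 of the 10 cortical complex genes (y axis) in 1 of 7 ligand groups (x axis), coloured from blue (lower) to red (higher), with an asterisk at an adjusted p under 0.05. PHLDB1 is red in every TGFB group and blue in EGF+OSM (-0.63), while PHLDB2 and TLN1 are red throughout.

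Of 18 focal adhesion genes, EGF+OSM+TGFB raised 17 and lowered 1 (37.7% and 36.7% of all genes), with a median log2 change of 1.668 against 0 over all genes. EGF raised 14 and lowered 2 (34.9% and 38.6% of all genes), OSM raised 15 and lowered 3 (33.5% and 29.8%), TGFB raised 15 and lowered 0 (19.9% and 15.8%), and EGF+OSM raised 14 and lowered 4 (37.6% and 39.6%). EGF+TGFB raised 16 and lowered 0 (36.2% and 37.5%), and OSM+TGFB raised 18 and lowered 0 (34.2% and 31.8%). ACTN1, the actin crosslinker alpha-actinin, rose most with all ligands, by 3.70 ± 0.0759 (SE, log2; edgeR adjusted p = 5.97e-23), from 162 ± 5.84 to 2111 ± 68.1 CPM (SD, n = 3). FERMT1, for kindlin-1, rose by 2.60 ± 0.0974 and TGFB1I1, for the LIM protein Hic-5, by 2.27 ± 0.0912 (SE, log2). All 18 departed downwards from additivity of EGF and OSM with TGFB, where 20.2% of all genes did, with a median of -0.973, and 17 did so under upper-quartile scaling or on library totals. KANK4 shared that direction, and KANK2 departed upwards.

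Of 11 genes of the RhoA branch and other known KANK partners, EGF+OSM+TGFB raised 8 and lowered 1 (37.7% and 36.7% of all genes), with a median log2 change of 0.652 against 0 over all genes. ARHGEF2, a RhoA exchange factor, rose by 1.11 ± 0.0542 (SE, log2). BAIAP2, for the KANK1 partner IRSp53, fell by 1.13 on the log2 scale (SE 0.0629), from 87.7 ± 3.79 to 40.2 ± 3.13 CPM (SD, n = 3). Of the 11 genes, 2 departed upwards and 8 downwards from additivity of EGF and OSM with TGFB (14.9% and 20.2% of all genes). On library totals 2 and 6 of them did, while 66.6% of all genes called there were upwards.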

How the data were processed

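RNA-seq libraries of 27 MCF10A samples in 9 groups of 3, assigned by their titles, were analysed from 1 deposited table of estimated counts per gene. Per the submitters' processing notes the tools included Trim Galore 0.4.3, cutadapt 1.10, FastQC 0.11.5, kallisto 0.46.2 and R 3.5.0, and the builds GRCh38.p5 and hg38, with no roles given. The deposited estimated counts were whole numbers, so rounding changed nothing. Rows sharing a symbol were summed. The 7165 rows without a symbol kept their identifier and took 0.324% of the counts. Library totals were 30.1 to 52.9 M (M, mega), and the 2 closest libraries of a group differed by more than sampling noise (chi-square per degree of freedom of at least 6.52), so each counted as 1 sample.

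After edgeR's filterByExpr by group, 15575 genes, among them KANK1, KANK2 and KANK4, were fitted over all groups with TMM scaling and the robust quasi-likelihood test (edgeR 4.0.16, R 4.3.3, 18 residual degrees of freedom, prior count 0.125). P-values were adjusted by Benjamini-Hochberg over all these genes and 1 comparison at a time, with a threshold of 0.05, in 21 comparisons. An SE is the log2 fold change over the root of its F, and a 95% CI uses the t quantile. Departure from additivity is the log2 change of a combination less the sum of its single changes. A CPM under additivity uses the same sum. Likeness used log2 CPM with prior count 2. Alternatives were other scalings, no filter, unsummed rows, a replicate block, DESeq2 1.42.0 and leaving out each library.

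The members and lists were chosen with earlier results of these data known. Genes named were the 4 members, the 5 genes most like each, the 10 cortical complex genes, and in the other 2 lists the 3 with the largest change among those called in EGF+OSM+TGFB, of which 1 is not reported here. The labels do not say what libraries of the same replicate number share, so the block is an alternative. Main p-values thus leave out any effect shared by number, although 26 of 27 libraries correlated best with their own number. Statistics were tested on simulated data.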

Additional observations from a re-analysis of the deposited data

Results flagged for a closer look

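The effect of 1 ligand on a KANK gene differed with the presence of another in 4 tested cases, each by the interaction term of the edgeR model. For KANK4 the departure of EGF and OSM from additivity with TGFB was -1.09 on the log2 scale. For KANK2 the same departure was 0.73, of opposite sign. For KANK1 the departure was -0.28 for TGFB with EGF and 0.40 for TGFB with OSM. Against background shares of 35.1%, 29.8% and 23.3% of all genes for these 3 contrasts, such a departure was common.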

How the results depend on the processing

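Most member results kept their direction and side of the threshold under other scalings, no filter, unsummed rows, the replicate block, DESeq2 and the fit restricted to the 4 TGFB groups; library totals without a scaling factor and that restricted fit were chosen after seeing the data. On library totals, KANK4 was 3.52 in EGF+TGFB, 4.51 in OSM+TGFB and 3.49 in EGF+OSM+TGFB against PBS, 3.01 for TGFB added to EGF, -0.074 for EGF added to TGFB, -0.10 for EGF+OSM added to TGFB, -0.029 for OSM added to EGF+TGFB and -0.58 for the EGF and TGFB departure. There KANK1 was -0.27 in EGF+TGFB and -0.10 in EGF+OSM+TGFB against PBS, -0.23 for TGFB added to EGF, 0.057 for OSM added to TGFB, -0.29 for EGF+OSM added to TGFB, and 0.10 with TGFB, 0.057 without it and 0.047 between them for the EGF and OSM departure. There PPFIA1 was -0.21, KIF21A -0.24, ERC1 -0.13 and CLASP2 -0.0079 in EGF+OSM+TGFB, CLASP2 -0.055 in OSM and -0.030 in TGFB, and ERC1 0.023 for the departure with TGFB. Under upper-quartile scaling KANK1 was -0.091 in EGF, -0.15 in EGF+TGFB, -0.099 for EGF+OSM added to TGFB, and 0.012 with and 0.023 without TGFB for the EGF and OSM departure; KIF21A was -0.016 in EGF+OSM+TGFB. Under these 2 scalings the lowest medians of all genes were -0.318 (library totals, EGF+OSM+TGFB) and -0.137 (upper quartile, EGF). With TMM scaling those medians were 0 and -0.072. The cause of the changes listed above was not tested. Without a filter KANK1 was -0.11 in OSM. The KANK2 departure of OSM and TGFB was 0.31 by relative log expression and in DESeq2, and DESeq2 gave KANK1 0.080 for PBS against T0. Leaving out 1 library gave -0.10 to -0.064 for KANK1 in OSM, -0.040 to 0.017 for KANK1 and 3.16 to 3.31 for KANK4 with TGFB added to EGF, -0.011 to 0.17 for KANK4 with OSM added to EGF+TGFB, and 0.18 to 0.34 (EGF) and 0.19 to 0.36 (OSM) for the KANK2 departures with TGFB. It also gave ERC1 -0.12 to 0.016 in EGF (highest without EGF replicate 1) and KIF21A -0.039 to 0.065 for the departure with TGFB (lowest without TGFB replicate 3).

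Same-numbered libraries had correlated deviations in 23 of 108 pairs (r over 0.1, median 0.057), against 1 of 216 pairs with other numbers (median -0.035). Of the 27 libraries, 26 correlated best with their own number, a hint from the data and not the design. With the replicate block KANK2 passed for PBS against T0 (0.14, adjusted p = 0.026) and for the EGF and TGFB (0.23, adjusted p = 0.0108) and OSM and TGFB (0.30, adjusted p = 0.00187) departures, and no other member call changed. Depth limits KANK3, at 0 to 8 counts a library.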
